A study of Mus musculus with 8 samples.

Results

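The nuclei described here are inhibitory neurons of the mouse hippocampus with RNA of Adarb2 and no counted RNA of Lhx6. This combination is used here as a sign of interneurons of caudal lineage. They were taken from 4 single-nucleus multiome libraries, in which RNA and accessible chromatin (ATAC) are read from the same nuclei. A nucleus was kept with 500 to 7000 detected genes, under 2% of unique molecular identifiers (UMIs, counted RNA molecules) from mitochondrial genes and 1000 to 70000 ATAC counts. It was counted as an Adarb2 interneuron with 3 or more UMIs of Gad1 plus Gad2, 3 or more of Adarb2, 0 of Lhx6 and at most 1 of Slc17a7, the vesicular glutamate transporter of excitatory neurons. This rule found 256 Adarb2 interneurons among 11518 kept nuclei of 14297 deposited barcodes. The 365 other inhibitory nuclei, with the same Gad1 plus Gad2 and Slc17a7 limits but without the Adarb2 and Lhx6 limits, were the comparison class.

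The hippocampi came from wild-type C57BL/6J pups at postnatal day 21. Their dams ate a defined diet with folic acid at 2 mg/kg (MF, the control) or 20 mg/kg (HF, excessive) from before mating through pregnancy and lactation, so HF and MF pups differed in the diet of the dam. Each diet had 2 libraries, named MF1, MF2, HF1 and HF2, and per-library values are given in that order throughout. The study calls the libraries of a diet biological replicates, but how many pups went into each is not given in the sources used here. The p-values of diet tests therefore measure the spread between libraries. Tests between groups of nuclei took the library as a block, so their p-values measure how far the difference varied between libraries. The study compared the diets to ask how excess maternal folic acid bears on gene expression and chromatin in the cell types of the offspring hippocampus.

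Cortical and hippocampal interneurons use GABA, which Gad1 and Gad2 synthesise, and arise from the ganglionic eminences of the embryonic ventral forebrain. Cells from the medial eminence keep the transcription factors Lhx6, Sox6 and Satb1 and include the Sst and Pvalb types. Cells from the caudal eminence express Prox1, Nr2f2 and Adarb2, a brain-specific relative of the RNA-editing enzymes, and include Vip interneurons, Cck basket cells rich in the cannabinoid receptor Cnr1, and neurogliaform cells with Reln, Ndnf and Lamp5. Lineage was not traced in these animals, and the name rests on RNA alone.

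The regions printed next are those that separated the Adarb2 interneurons from the other inhibitory nuclei in accessible chromatin, a readout that the RNA limits of the rule did not use. The first group holds 250 bases before a RefSeq start of Adarb2 (chr13:8202616-8202865, plus strand), Lhx6 (chr2:36105409-36105658, minus strand) and Cxcl14 (chr13:56296552-56296801, minus strand) from the RefSeq promoter table, build GRCm38, the build that mm10 names. The second group holds the 300 bases at the centre of regions higher in the Adarb2 interneurons, plus strand, read from the GRCm38 genome. The first is the centre of a region that overlaps a coding exon of Tmco4 (chr4:139019065-139019364), and the next lies between genes (chr12:11676414-11676713). The last belongs to a region 14.4 kb from the start of Htr3a that overlaps a noncoding exon of Gm32335 (chr9:48896044-48896343). These overlaps are of the whole regions and were not computed for the centres. The third group holds the centres of regions lower in them, 30.4 kb from the start of Arl4d (chr11:101696211-101696510) and in an intron of Gm36503 (chr6:16553722-16554021). Capitals mark matches, on either strand, to the letters TAATTA (found in homeodomain sites), AACAAT (SOX sites) or TGANTCA (AP-1 sites, N being any base). A match is a description of the letters and not a bound site.
Adarb2 upstream: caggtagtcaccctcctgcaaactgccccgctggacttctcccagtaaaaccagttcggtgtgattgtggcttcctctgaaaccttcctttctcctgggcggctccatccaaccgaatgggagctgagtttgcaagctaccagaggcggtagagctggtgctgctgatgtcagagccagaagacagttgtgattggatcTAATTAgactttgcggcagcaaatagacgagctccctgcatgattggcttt
Lhx6 upstream: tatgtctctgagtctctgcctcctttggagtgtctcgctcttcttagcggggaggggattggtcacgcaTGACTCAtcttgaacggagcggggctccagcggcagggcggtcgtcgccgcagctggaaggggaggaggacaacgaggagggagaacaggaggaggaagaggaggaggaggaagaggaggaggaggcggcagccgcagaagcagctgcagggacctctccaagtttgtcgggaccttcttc
Cxcl14 upstream: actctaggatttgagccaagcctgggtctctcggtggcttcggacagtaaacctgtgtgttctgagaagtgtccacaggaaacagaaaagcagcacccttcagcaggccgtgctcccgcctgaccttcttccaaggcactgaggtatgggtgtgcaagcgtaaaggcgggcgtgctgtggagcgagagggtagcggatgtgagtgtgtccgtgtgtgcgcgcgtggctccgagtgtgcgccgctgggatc
Tmco4 exon region, higher: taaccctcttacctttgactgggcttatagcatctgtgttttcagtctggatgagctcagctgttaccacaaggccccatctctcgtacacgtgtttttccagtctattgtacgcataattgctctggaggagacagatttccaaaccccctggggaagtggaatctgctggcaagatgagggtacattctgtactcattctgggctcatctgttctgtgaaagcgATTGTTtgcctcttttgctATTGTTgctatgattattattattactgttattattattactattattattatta
Intergenic chromosome 12 region, higher: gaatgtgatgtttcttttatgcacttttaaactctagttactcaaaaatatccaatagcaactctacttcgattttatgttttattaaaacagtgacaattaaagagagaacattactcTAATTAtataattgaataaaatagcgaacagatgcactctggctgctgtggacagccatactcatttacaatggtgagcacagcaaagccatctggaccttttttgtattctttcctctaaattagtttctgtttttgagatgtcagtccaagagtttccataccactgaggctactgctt
Htr3a distal region, higher: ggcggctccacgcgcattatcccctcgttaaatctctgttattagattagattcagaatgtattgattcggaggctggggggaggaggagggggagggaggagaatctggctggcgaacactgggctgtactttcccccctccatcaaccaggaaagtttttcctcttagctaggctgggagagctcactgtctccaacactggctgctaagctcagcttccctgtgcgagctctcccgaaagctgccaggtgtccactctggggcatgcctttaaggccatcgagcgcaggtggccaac
Arl4d distal region, lower: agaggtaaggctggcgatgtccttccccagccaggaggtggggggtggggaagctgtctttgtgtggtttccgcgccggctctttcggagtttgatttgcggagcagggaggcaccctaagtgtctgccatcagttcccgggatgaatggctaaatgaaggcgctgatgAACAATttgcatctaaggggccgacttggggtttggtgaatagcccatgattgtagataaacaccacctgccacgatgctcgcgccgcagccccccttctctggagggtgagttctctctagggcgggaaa
Gm36503 intron region, lower: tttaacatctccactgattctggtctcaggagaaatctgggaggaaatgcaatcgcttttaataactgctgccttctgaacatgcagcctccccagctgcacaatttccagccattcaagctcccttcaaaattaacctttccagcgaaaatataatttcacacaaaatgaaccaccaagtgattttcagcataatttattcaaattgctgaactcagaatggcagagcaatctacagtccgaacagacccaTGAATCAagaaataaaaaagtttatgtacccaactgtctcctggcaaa

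The libraries held 2899, 2249, 3473 and 2897 kept nuclei with 20151562 to 29243072 UMIs, of which the Adarb2 interneurons numbered 68, 50, 66 and 72 with 594673 to 861588 UMIs. Their median depth was 10097 UMIs, 3518 genes and 21440.5 ATAC counts per nucleus, against 11359 UMIs, 3892 genes and 22748 ATAC counts in the other inhibitory nuclei. Doublets were not removed, and a Scrublet score over 0.05 was found in 17.6% of the Adarb2 interneurons, 17.3% of the other inhibitory nuclei and 15.3% of kept nuclei. Library pairs shared 8 to 20 barcodes among kept nuclei, and 0 of these belonged to Adarb2 interneurons.

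The nuclei were chosen by their UMIs of Adarb2, Lhx6, Gad1, Gad2 and Slc17a7, so the RNA of these genes is given as a description. Adarb2 had a median of 73 UMIs per Adarb2 interneuron (range 3 to 1067), with library medians of 59, 83.5, 84 and 69. Among the other inhibitory nuclei 301 of 365 had no Adarb2 UMI. A UMI of Adarb2 was not particular to inhibitory nuclei. It was found in 38.6% of 1900 excitatory nuclei (3 or more Slc17a7 UMIs and no Gad1 or Gad2), whose median was 0. With every nucleus thinned to 3000 UMIs, the share was 28.4% in excitatory and 11.5% in the other inhibitory nuclei. Most members were far inside the limit, since 219 had 10 or more Adarb2 UMIs, 29 had 5 to 9, 4 had 4 and 4 had 3. Just outside it, 8 nuclei had 2 Adarb2 UMIs and 10 had 1 with Lhx6 at 0. The Lhx6 limit left out 34 nuclei with 3 or more Adarb2 UMIs, of which 24 had 1 Lhx6 UMI and 10 had 2 or more. Reln was found in 19 of these 24 and 5 of these 10, against 115 of the 256 members. Cnr1 was found in 5 and 2 of them against 198 members, and Vip in 1 and 0 against 61 members. For Gad1 plus Gad2, 56 members were at 3 UMIs, while 104 nuclei that met every other limit were left out at 2. Slc17a7 was at 1 UMI in 66 members. The 29 nuclei with 5 to 9 Adarb2 UMIs differed from those with 10 or more in the markers that follow, with Vip in 1 of 29 against 60 of 219 and Cnr1 in 10 of 29 against 185 of 219.

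The comparison class was not all of medial lineage by its RNA. Lhx6 was seen in 151 of its 365 nuclei (41.4%), and 196 had a UMI of neither Lhx6 nor Adarb2. RNA levels are given as CPM, the UMIs of a gene scaled to a common total of UMIs summed over a class within a library. Gad2 was at 482, 410, 424 and 402 CPM in the Adarb2 interneurons and at 425, 356, 340 and 341 CPM in the other inhibitory nuclei. Gad1 was at 369, 304, 320 and 310 CPM against 401, 300, 320 and 265 CPM. Both classes thus held the GABA enzymes at levels that overlapped or lay close, which the rule asked of both.

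Of the caudal lineage genes other than Adarb2, 8 of the 9 that could be tested were higher in the Adarb2 interneurons and 0 were lower, and of 11 medial lineage genes tested 7 were lower and 0 higher. The comparison was a fit over all genes with the library as a block (edgeR quasi-likelihood test, FDR being the Benjamini-Hochberg adjusted p), and a gene was called at an FDR under 0.05 with at least a 2-fold difference. Over 10199 genes tested, 245 (2.40%) were called higher and 211 (2.07%) lower, with a median log2 difference of -0.01. The median was 1.54 over the caudal list and -1.89 over the medial list. RNA of 1 set of nuclei both chose and measured the classes, so genes that go with Adarb2 or Lhx6 differ by the way the nuclei were divided.

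Htr3a, the ion channel receptor for serotonin, was at 34.5, 26.9, 33.0 and 17.4 CPM in the Adarb2 interneurons and at 0, 1.06, 3.05 and 2.84 CPM in the others (log2 difference 3.93, SE 0.47, FDR 1.59e-05). Cxcl14, a chemokine, was at 102, 77.4, 118 and 97.5 CPM against 5.79, 11.7, 6.10 and 7.56 CPM (3.73, SE 0.23, FDR 1.01e-08). The classes did not overlap for either gene in any library. Npas1 and Npas3 are paired transcription factors of the bHLH-PAS family. Npas1 stood at 91.0, 80.7, 71.1 and 54.6 CPM against 14.1, 4.24, 15.3 and 16.1 CPM (2.56, SE 0.25, FDR 1.75e-06), and Npas3 at 2356, 3037, 2538 and 2312 CPM against 819, 816, 938 and 1042 CPM (1.54, SE 0.11, FDR 3.17e-08). The epidermal growth factor receptor Egfr was likewise higher in all 4 libraries, at 211, 192, 180 and 211 CPM against 74.5, 45.5, 33.6 and 35.9 CPM (2.13, SE 0.15, FDR 5.28e-08). The homeobox factor Prox1 (log2 difference 1.45), the nuclear receptor Nr2f2 (1.30) and the zinc finger factor Zbtb16 (1.32) completed the 8. Nr2f1, a close relative of Nr2f2, had a log2 difference of 0.01 (FDR 0.995). Sp8 was too low to test, at 8.27, 8.41, 5.08 and 1.16 CPM against 0, 0, 0.763 and 1.89 CPM.

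On the medial side, Sst was at 74.4, 47.1, 164 and 13.9 CPM in the Adarb2 interneurons and at 1193, 459, 771 and 597 CPM in the others (log2 difference -3.42, SE 0.27, FDR 1.86e-07). An Sst UMI was found in 28.1% of Adarb2 interneurons, 55.6% of the other inhibitory nuclei and 28.7% of 1900 excitatory nuclei (3 or more Slc17a7 UMIs and no Gad1 or Gad2), whose median depth was 13657.5 UMIs. With every nucleus thinned to 3000 UMIs these shares were 10.3%, 38.5% and 8.07%, so the share in the Adarb2 interneurons lay near that of excitatory nuclei and below that of the other inhibitory nuclei. Satb1, a chromatin organiser, was at 108, 53.8, 57.1 and 73.1 CPM against 324, 281, 249 and 373 CPM (-2.04, SE 0.14, FDR 2.92e-08). Sox6 was at 23.4, 166, 138 and 75.4 CPM against 418, 371, 371 and 595 CPM (-2.17, SE 0.28, FDR 3.69e-05), with MF1 lowest among the Adarb2 interneurons. Nxph1, a ligand of neurexins, stayed abundant in them at 929, 1377, 1011 and 1596 CPM and was still lower than the 2844, 3656, 2736 and 3113 CPM of the others (-1.32, SE 0.10, FDR 9.98e-08). Pvalb (-1.89) and Rbp4 (-3.25) were also called lower, while Maf (-0.62), Cux2 (-0.87), Tox (-0.76) and Kcnmb2 (-0.59) differed by less than 2-fold. Nkx2-1, which specifies the medial eminence, was at 0 in all 4 libraries of the Adarb2 interneurons and too low to test.

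**Figure D1:**
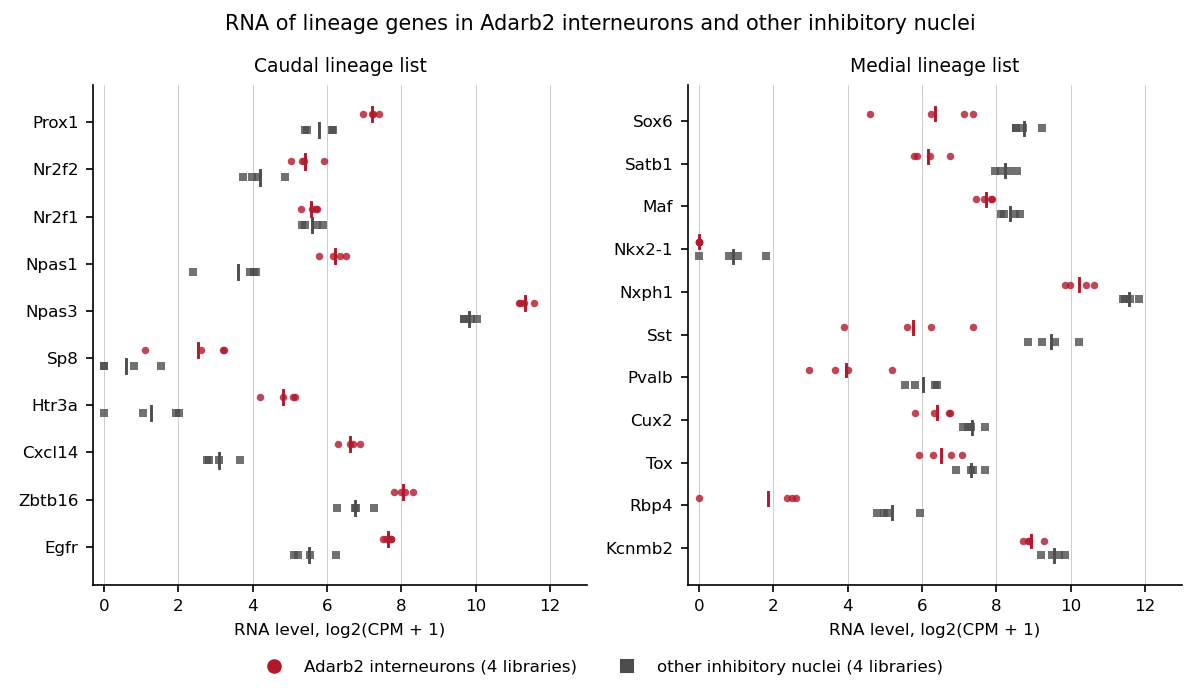
RNA level, as log2(CPM + 1), of caudal and medial lineage genes in the 4 libraries of the Adarb2 interneurons (red circles) and of the other inhibitory nuclei (grey squares), with the mean as a vertical bar. Red lies to the right of grey for Npas1, Htr3a, Cxcl14 and Egfr and to the left for Sst, Satb1 and Nxph1, while the classes overlap for Nr2f1.

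Genes common to all GABA neurons were mostly level between the classes, with 1 of 11 called higher, 2 lower and a median of -0.14. The neuregulin receptor Erbb4 was at 8268, 8278.5, 8081 and 8309 CPM in the Adarb2 interneurons and at 8878, 9216, 8450.01 and 8553 CPM in the others (log2 difference -0.05, FDR 0.77). Slc32a1, the vesicular GABA transporter, differed by -0.41 and was not called. Dlx6os1, a noncoding RNA of the Dlx5 and Dlx6 locus, was higher at 531, 533, 459 and 414 CPM against 189, 162, 161 and 137 CPM (1.61, SE 0.10, FDR 1.01e-08). Rab3b (-1.46), a vesicle GTPase, and the calcium channel subunit Cacna2d2 (-2.64) were lower.

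Among genes at 20 CPM or more in each of the 4 libraries of the class where they were higher, the 12 with the largest higher folds were led by Syt6, a synaptotagmin, at 57.9, 77.4, 57.1 and 48.7 CPM in the Adarb2 interneurons and 0.828, 2.12, 4.58 and 0 CPM in the others (log2 difference 4.86, FDR 7.14e-08). Cadps2, which primes dense core vesicles for release, was at 529, 570, 721 and 640 CPM against 19.9, 19.1, 42.7 and 48.2 CPM (4.30, FDR 1.75e-11). Ntng1, an axonal adhesion protein, was at 496, 790, 716 and 1137 CPM against 30.6, 40.3, 61.0 and 82.2 CPM (3.91, SE 0.13, FDR 4.11e-12). In each of these the lowest library of the Adarb2 interneurons was above the highest of the others. The rest were Vip, Cxcl14, Cnr1, Stk32b (3.45), Kit, Ndnf, Rgs12, Sema5b and Npas1. Of the 12 with the largest lower folds under that limit, the axon guidance ligand Slit2 was at 24.8, 33.6, 40.6 and 61.5 CPM against 346, 404, 310 and 573 CPM (-3.30, FDR 1.21e-10). The kinase gene Nek7 was at 12.4, 18.5, 12.7 and 10.4 CPM against 133, 161, 109 and 138 CPM (-3.29, FDR 1.79e-09), and the synaptic receptor gene Il1rapl2 at 38.6, 70.6, 105 and 72.0 CPM against 511, 736, 586 and 629 CPM (-3.07, FDR 7.69e-10). In each of these every library of the Adarb2 interneurons lay below every library of the others. The others were 9630002D21Rik (-4.57), Gna14 (-4.47), Agbl1 (-3.96), Sst, Rbp4, Lypd6b (-3.11), Lypd6 (-3.08), Myo1e (-2.95) and Gm1604b (-2.89).

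Genes of Vip interneurons were higher as a list, with 7 of 10 tested called higher, 1 lower (Mybpc1, -3.03) and a median of 2.22. With DESeq2 5 of the 10 were called higher and 1 lower. Vip, a peptide of interneurons that inhibit other interneurons, was at 414, 222, 316 and 143 CPM in the Adarb2 interneurons and at 31.4, 1.06, 6.10 and 3.78 CPM in the others (log2 difference 4.75, SE 0.26, FDR 2.12e-09). A Vip UMI was found in 61 of 256 Adarb2 interneurons (23.8%), against 3.29% of the other inhibitory nuclei and 2.58% of excitatory nuclei. After thinning to 3000 UMIs these shares were 20.6%, 0.838% and 0.316%. The tachykinin gene Tac2 was at 116, 18.5, 73.6 and 51.1 CPM against 4.97, 5.30, 3.05 and 0 CPM (4.33, SE 0.37, FDR 3.59e-07). The growth factor Igf1 was at 238, 219, 203 and 198 CPM against 46.3, 42.4, 64.1 and 37.8 CPM (2.20, SE 0.14, FDR 1.51e-08). Penk (3.39), Crh (2.62) and Npy2r (2.25) were higher too. The calretinin gene Calb2 was called at 1.27 (FDR 0.00447), and without MF2 it stood at 1.01 (FDR 0.0508). Cck, a peptide that excitatory nuclei also held (84.9% with a UMI), was at 276, 129, 420 and 144 CPM against 158, 99.6, 162 and 87.9 CPM, a difference under 2-fold (0.91, FDR 0.000174).

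Of 10 genes of Cck and Sncg interneurons tested, 5 were higher and 0 lower (median 2.07). Cnr1, the CB1 cannabinoid receptor, was at 816, 673, 681 and 434 CPM in the Adarb2 interneurons, a mean of 651 ± 159 (SD, n = 4 libraries), and at 64.6, 30.7, 48.8 and 55.8 CPM in the others, a mean of 50 ± 14.4 (log2 difference 3.72, SE 0.16, FDR 1.32e-10). A Cnr1 UMI was found in 77.3% of Adarb2 interneurons, 32.6% of the other inhibitory nuclei and 46.1% of excitatory nuclei, and after thinning in 62.7%, 14.0% and 14.1%. Besides Cxcl14, the genes higher were Rgs12 (3.26), a regulator of G protein signalling, the semaphorin Sema5b (2.84) and Tnfaip8l3 (2.29). Col19a1 (0.43), Calb1 (0.11) and the vesicular glutamate transporter Slc17a8 (1.84, FDR 0.0929) were not called. Sncg was at 5.51, 5.04, 1.27 and 1.16 CPM and at 0 in all 4 libraries of the others, too low to test. Among 8 genes of endocannabinoid signalling, Cnr1 was the 1 called. The enzymes that break endocannabinoids down were not, with Faah at 0.57 (FDR 0.0532) and Mgll at 0.05.

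Of 11 Lamp5 and neurogliaform genes tested, 3 were higher and 1 lower (median 0.19). Ndnf, a secreted factor, was at 119, 163, 147 and 139 CPM against 3.31, 6.36, 20.6 and 22.7 CPM (log2 difference 3.43, SE 0.26, FDR 8.47e-08). The receptor tyrosine kinase Kit was at 86.8, 95.9, 83.8 and 115 CPM against 14.1, 9.53, 5.34 and 6.62 CPM (3.44, SE 0.23, FDR 1.68e-08). The vesicle protein Sv2c was the third (2.00, FDR 3.08e-05). Reln, an extracellular matrix protein that Sst interneurons also make, was at 595, 869, 826 and 893 CPM against 327, 440, 623 and 384 CPM, under 2-fold (0.90, FDR 4.38e-05), and its UMIs were found in 44.9% of Adarb2 interneurons and 45.8% of the others. Lamp5 itself differed by 0.98 (FDR 0.00335), just under 2-fold. Id2 (-0.03) and Npy (-0.40) were not called. Gabrd, a GABA receptor subunit, was called lower (-1.14), and without MF2 it was at -0.84 (FDR 0.0756).

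Markers of medial subtypes gave the opposite count, with 8 of 13 lower and 1 higher (Kit), at a median of -1.18. The potassium channel Kcnc2 was at 1010.4, 1444, 980 and 1544 CPM in the Adarb2 interneurons against 2497, 2954, 2485 and 3499 CPM (log2 difference -1.18, FDR 6.79e-08). Tac1 (-2.06), the corticotropin releasing hormone binding protein Crhbp (-2.54) and Syt2 (-2.72) were also lower. The related channel Kcnc1 was called at -1.02 and stood under 2-fold without HF2 (-0.96).

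For receptors of serotonin, acetylcholine and noradrenaline, 4 of 12 genes tested were higher and 0 lower (median 0.53). Besides Htr3a these were the serotonin receptor Htr2c, at 305, 156, 264 and 319 CPM against 53.0, 12.7, 55.7 and 79.4 CPM (log2 difference 2.45, SE 0.16, FDR 1.69e-08), the nicotinic subunit Chrna7, at 157, 220, 161 and 154 CPM against 108, 79.4, 79.3 and 56.7 CPM (1.13, FDR 2.99e-05), and the adrenergic receptor Adra1b, at 63.4, 48.8, 40.6 and 36.0 CPM against 11.6, 5.30, 11.4 and 6.62 CPM (2.42, FDR 3.16e-06). Htr2a (0.00), Htr4 (-0.00), Htr7 (-0.08) and Chrm3 (0.50) were not called. The muscarinic receptor Chrm2 varied most between libraries of the Adarb2 interneurons, at 4.14, 195, 92.6 and 398 CPM against 112, 104, 131 and 159 CPM in the others (0.17, FDR 0.879). Of 10 neuropeptide genes tested, 4 were higher (Vip, Tac2, Penk and Crh) and 3 lower (Sst, Tac1 and Cort, -1.84), with a median of 0.57. Neuregulins and receptors of the Egfr family gave 1 of 6 higher, Egfr itself (median 0.23), with Nrg1 at 0.23 and Nrg3 at 0.30. Immediate early genes (7 tested, median 0.26) and genes of folate and 1-carbon metabolism (20 of 39 tested, median -0.06) gave 0 called, and so did ribosomal protein genes (85 tested, median 0.07), while 1 of 87 oxidative phosphorylation genes was lower (median -0.15), the cytochrome oxidase subunit Cox6a2 (-1.77, FDR 0.0390).

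Markers of other cells were present in both classes. Summed over 10 genes, oligodendrocyte markers reached 1527, 1833, 983 and 715 CPM in the Adarb2 interneurons and 1270.4, 857, 2131 and 655 CPM in the other inhibitory nuclei, and 0 of 10 genes differed. Astrocyte markers summed to 389, 555, 990 and 593 CPM against 441, 668, 577 and 732 CPM (0 of 7 called), and microglial markers to 131, 97.5, 242 and 185 CPM against 383, 79.4, 145 and 95.5 CPM (0 of 7 called). Vascular markers were too low to test. Oligodendrocyte precursor markers were higher, at 442, 787, 527 and 484 CPM against 314, 359, 429 and 349 CPM. All 7 tested lay above 0, at a median log2 difference of 0.64, and 2 of 7 were called. These were Pdgfra (log2 difference 2.05, FDR 0.00394), at 1.85 (FDR 0.0653) without MF2, and Gpr17 (1.57, FDR 0.0463), at 1.66 (FDR 0.0637) without HF2. Of 8 excitatory markers tested, Glis3 and Cpne4 were higher and Trpc6 lower, and Slc17a7 itself was at 17.4 to 24.8 CPM against 13.8 to 19.9 CPM. Cajal-Retzius cells also express Reln and Ndnf, and of these 2 Ndnf was called. Haemoglobin RNA stood out in MF1, where a single nucleus held 668 of the 820 Hba-a1 UMIs of that class and library. The 3 haemoglobin genes called higher (Hba-a1, Hba-a2 and Hbb-bt) were at 0.19, -0.04 and 0.10 without MF1. Leaving out nuclei with 3 or more UMIs over 8 glial markers kept the counts of 8 of 9 caudal genes higher and 7 of 11 medial genes lower, a setting chosen after the data were seen. Leaving out nuclei with 5 or more UMIs over the whole glial lists left few nuclei, and of the 26 named calls still tested 14 were kept and 12 lost, Npas1, Zbtb16, Nxph1, Il1rapl2 and Tac2 among them.

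Accessible chromatin, which the RNA limits did not use, was called at 52 of the genes called in RNA, each in the direction of its RNA. ATAC counts were summed over each gene and 2 kb upstream, and a gene was called at an FDR under 0.05 and at least a 1.5-fold difference, which gave 96 of 17524 genes higher (0.548%) and 118 lower (0.673%). Of 215 genes called higher in RNA, 23 were more accessible in the Adarb2 interneurons and 0 less, with a median of 0.32, and 87.9% lay above 0. Of 192 called lower in RNA, 0 were more accessible and 29 less, with a median of -0.30, and 15.1% lay above 0. Over all 9563 genes with both readouts, 43 were called higher and 51 lower, with a median of -0.00. RNA and ATAC came from the same nuclei, so the classes are the same in both and the libraries are shared.

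At Adarb2 the gene's ATAC level was higher (log2 difference 1.79, SE 0.12, FDR 6.66e-29) and at Lhx6 lower (-2.46, SE 0.27, FDR 4.12e-12), and both held without each library in turn. Gad1 (0.03) and Gad2 (-0.03), which the rule required of both classes, did not differ beyond their error. Crhbp (-3.12, FDR 1.96e-11), Sox6 (-0.94, FDR 1.55e-08) and Cxcl14 (1.66, FDR 0.000801) went with their RNA. Cnr1 was called at 0.97 (FDR 6.5e-05), and at 0.77 (FDR 0.0544) without MF2. Npas3 was called at 0.63 (FDR 3.02e-08), and without HF1 it was at 0.49, under 1.5-fold. Igf1 was called at 1.08 (FDR 0.00291), with 0.91 (FDR 0.162) without MF2 and 0.85 (FDR 0.0854) without HF1. Of the 10 caudal genes all 10 lay above 0, 3 of them called (Cxcl14, Npas3 and Npas1), at a median of 0.52, and of 10 medial genes 0 lay above 0 and 2 were called lower (Sox6 and Nxph1), at a median of -0.49. Npas1 had an FDR of 0.275 without MF1, 0.152 without MF2 and 0.112 without HF2, and Nxph1 had -0.58 (under 1.5-fold) without MF1 and an FDR of 0.0557 without MF2 and 0.0696 without HF1. The count of 214 called genes was 86 without MF2 and 140 without HF2. DESeq2 called 53 genes and kept 7 of the 16 calls at named genes, and Npas1 (FDR 0.378), Nxph1 (FDR 0.188) and Igf1 (FDR 0.157) were among the 9 lost.

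**Figure D2:**
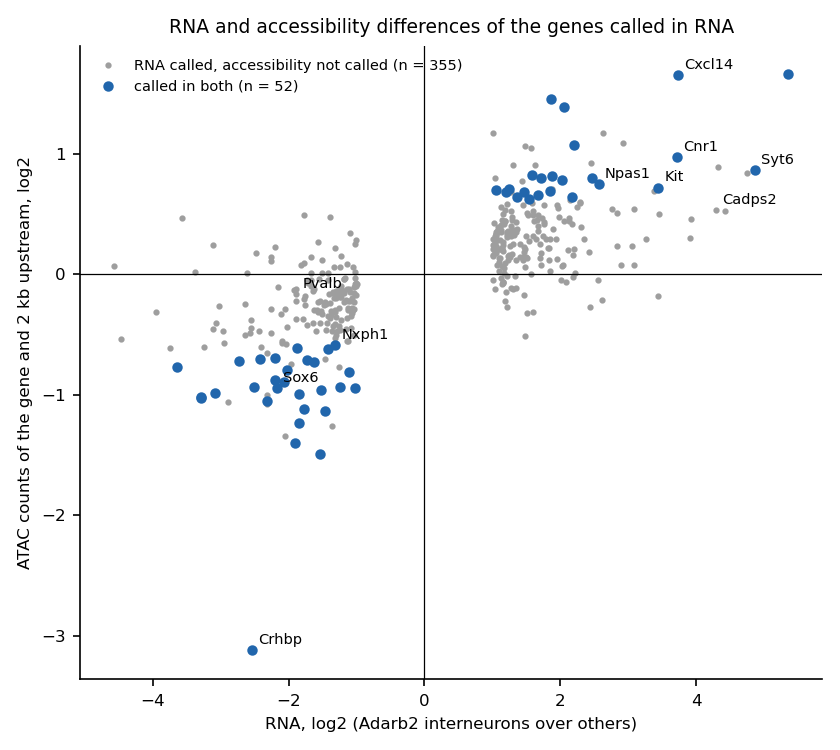
Log2 difference between the Adarb2 interneurons and the other inhibitory nuclei in RNA (x axis) and in ATAC counts of the gene and 2 kb upstream (y axis), for the genes called in RNA, with blue points called in both. The 52 blue points lie at the lower left or the upper right, with Cxcl14 and Cnr1 upper right and Crhbp lowest.

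Single regions, the peaks of the 4 libraries merged, gave 345 called higher (0.554%) and 626 lower (1.0%) of 62315 tested. Only regions with a peak in all 4 libraries and enough counts were tested. At the start of Adarb2 (chr13:8202415-8203288, over a coding exon, a region that contains the upstream bases printed above) the Adarb2 interneurons had 34, 34, 51 and 45 ATAC counts and the others 11, 9, 19 and 17 (log2 difference 2.06, SE 0.30, FDR 3.52e-05). All 15 regions tested inside Adarb2 lay above 0, 4 of them called, at a median of 2.19. Of these 4, the regions 4.2 kb and 185.5 kb from the start lost the call without any 1 library (FDR 0.112 to 0.313) and the region at 202.9 kb lost it without HF2 (FDR 0.0735), so the start region was the 1 that kept it without each library in turn. Against only the nuclei with 2 or more Lhx6 UMIs and at most 1 of Adarb2, which are few, 0 of 26803 regions were called, the start region included (3.74, FDR 0.358). At the start of Lhx6 (chr2:36104734-36105692) the counts were 1, 5, 10 and 4 against 36, 62, 45 and 39 (-2.71, SE 0.40, FDR 3.58e-05). At both starts accessibility was thus higher in the class with more of that gene's RNA and lower in the other. The nuclei were divided by RNA of these genes, so this is not separate from that choice. Of the 365 other inhibitory nuclei, 151 had an Lhx6 UMI. A second Lhx6 region, 13.4 kb into the gene (chr2:36091017-36091958), had 2, 10, 6 and 4 against 35, 28, 57 and 22 counts (-2.16, FDR 0.0015), with -1.98 (FDR 0.0531) without HF1.

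Regions near other caudal genes were open in the Adarb2 interneurons. The start of Cxcl14 (chr13:56295977-56296891) had 30, 22, 19 and 22 counts against 7, 12, 8 and 4 (log2 difference 2.09, FDR 0.00183), with 1.87 (FDR 0.0587) without MF1. The region 14.4 kb from Htr3a (chr9:48895716-48896672) had 58, 46, 34 and 43 counts against 12, 16, 25 and 18 (1.84, SE 0.29, FDR 7.43e-05). An intron of Npas3 (chr12:53971060-53972033) had 27, 20, 24 and 32 counts against 6, 10, 0 and 6 (2.75, FDR 0.000245). None of these 3 overlapped between the classes in any library. Farther from genes of the lists, the Tmco4 exon region (chr4:139018737-139019692) had 17, 33, 29 and 17 counts against 3, 5, 4 and 1 (3.36, SE 0.48, FDR 2.29e-05), and the chromosome 12 region (chr12:11676094-11677033, 104.5 kb from Gm47833) had 16, 12, 17 and 25 against 2, 0, 0 and 2 (4.49, SE 0.68, FDR 4.92e-05).

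Among regions lower in the Adarb2 interneurons, the Arl4d distal region (chr11:101695905-101696817) had 6, 17, 6 and 11 counts against 60, 68, 75 and 71 (log2 difference -2.31, SE 0.29, FDR 3.91e-06). A region 10.8 kb from Guca2b (chr4:119669717-119670623) had 17, 14, 15 and 27 counts against 104, 81, 107 and 72 (-1.81, SE 0.23, FDR 3.91e-06). Both kept some signal in every library of the Adarb2 interneurons. The Gm36503 intron region (chr6:16553365-16554378) had 8, 5, 0 and 4 counts against 54, 53, 31 and 49 (-3.00, FDR 1.76e-05). A region on chromosome 3 (chr3:42897779-42898717) had 0, 4, 0 and 0 counts against 26, 34, 26 and 42 (-4.48, FDR 1.76e-05), the nearest to closed of those with the smallest FDR.

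Called regions lay away from gene starts more often than tested regions at large. Within 1 kb of a start lay 6.38% of those higher and 5.27% of those lower, against 22.0% of all tested, and the median distance was 45.6 kb, 39.6 kb and 18.7 kb. Intergenic regions made up 44.9%, 42.7% and 28.0%, and introns 41.2%, 39.6% and 35.8%. Inside the 212 genes called higher in RNA, 25 of 1155 regions (2.16%) were called higher and 1 lower. Inside the 190 genes called lower in RNA, 1 of 904 was called higher and 51 (5.64%) lower. Genes not called in RNA held 0.335% higher and 0.641% lower of 31030 regions. In place of 971 called regions there were 341 without MF1, 303 without MF2, 466 without HF1 and 408 without HF2.

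In letters, the 300-base centres of the 2 sets differed. AACAAT was found in 31.0% of regions called higher (107), 8.95% of those called lower (56) and 11.3% of all 62304 with a window. TAATTA was found in 20.0% of those higher (69), 10.9% of those lower (68) and 7.10% of all. TGANTCA showed the reverse order, in 9.57% of those higher (33), 30.5% of those lower (191) and 11.1% of all. The Adarb2 upstream sequence printed above holds 1 TAATTA and the Tmco4 exon region 2 AACAAT, while the Lhx6 upstream sequence and the Gm36503 intron region hold 1 TGANTCA each. The letters do not separate single regions, since the Arl4d distal region, lower in the Adarb2 interneurons, holds 1 AACAAT, and the Cxcl14 upstream and Htr3a distal sequences hold none of the 3. Away from starts, beyond 1 kb, the shares were 32.5%, 9.11% and 13.4% for AACAAT, 20.7%, 11.5% and 8.64% for TAATTA and 8.98%, 31.0% and 13.1% for TGANTCA. Of 32817 promoter sequences of 250 bases, 9.42% held AACAAT, 4.85% TAATTA and 6.75% TGANTCA. The other motifs searched, on both strands, were AGGTCA (nuclear receptor sites, 7.54%, 11.0% and 10.4%), CAGATG (basic helix-loop-helix, 41.2%, 44.9% and 28.1%) and TGCTGA (MAF sites, 31.6%, 40.1% and 25.4%). No motif contains another, though matches can overlap at their ends. Base composition differed as well, with a median GC content of 46.3% in regions higher, 48.3% in those lower and 51.7% in all. The shares of TAATTA ran in the reverse order of GC content, while those of AACAAT and TGANTCA did not. The part of base composition in the shares was not tested.

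**Figure D3:**
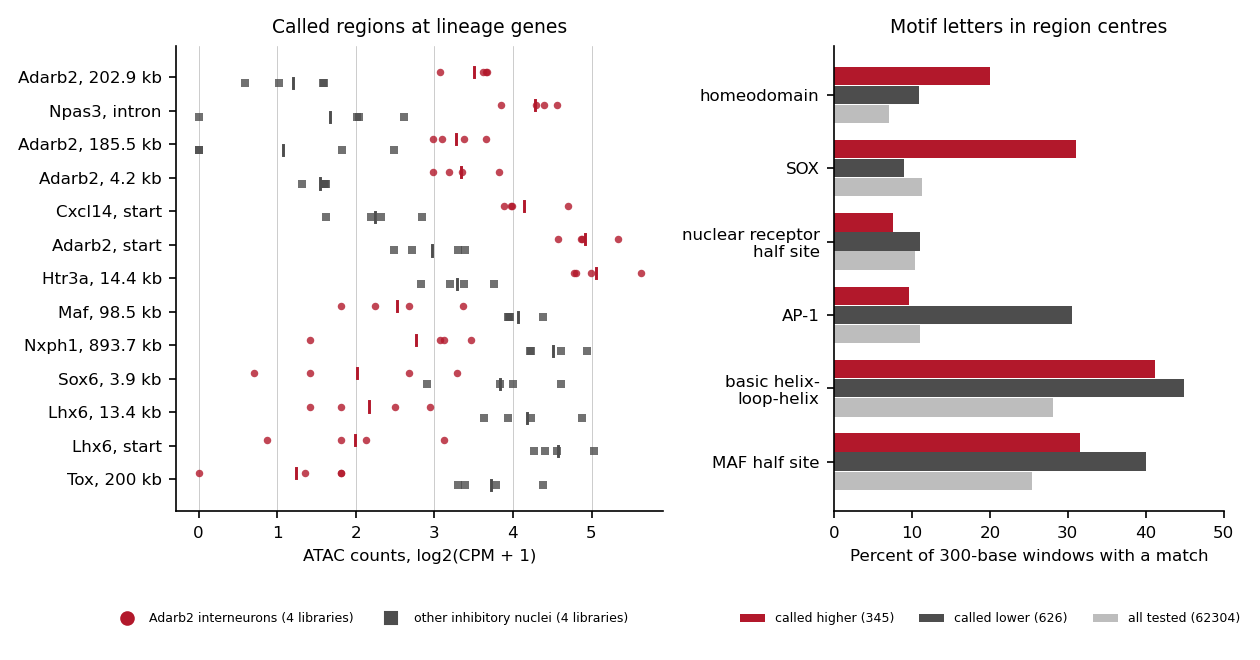
Left, ATAC counts as log2(CPM + 1) of called regions at lineage genes in the 4 libraries of the Adarb2 interneurons (red circles) and the other inhibitory nuclei (grey squares), with the mean as a vertical bar and the distance to the gene's start in the row name. Right, percent of 300-base region centres with a match to each motif: the SOX letters reach 31.0% in regions called higher and the AP-1 letters 30.5% in those called lower, against 11.3% and 11.1% of all tested.

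Within the Adarb2 interneurons, Vip, Cnr1 and Reln marked groups that overlapped in part. Vip at 2 or more UMIs was found in 48 nuclei (15, 8, 15 and 10 by library), Cnr1 at 2 or more in 166 (44, 34, 43 and 45) and Reln at 3 or more in 88 (19, 19, 24 and 26). Of the 48 Vip nuclei, 40 (83.3%) also reached the Cnr1 limit, against 126 of the 208 others (60.6%). Vip and Reln were nearly exclusive, with 2 of 48 Vip nuclei (4.17%) at the Reln limit against 86 of 208 (41.3%). Cnr1 and Reln coincided in 56 of the 166 Cnr1 nuclei. The largest combination was Cnr1 alone (72 nuclei), followed by Cnr1 with Reln (54), none of the 3 (50), Vip with Cnr1 (38), Reln alone (32) and Vip alone (8). Each group was compared with the Adarb2 interneurons at 0 UMIs of its gene, in sums by library. The gene used to divide the nuclei is not a result, and genes that go with it differ by the way the nuclei were divided.

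Against 195 nuclei without Vip, the 48 Vip nuclei had 130 of 6852 genes called higher (1.90%) and 222 lower (3.24%), with a median of -0.04. They were shallower, at a median of 7566 UMIs against 11446. Of 8 other Vip type genes tested 7 were higher and 0 lower (median 2.21). Tac2 was at 604, 47.2, 374 and 225 CPM in the Vip nuclei and 16.6, 15.1, 13.6 and 23.3 CPM in those without (log2 difference 4.11, FDR 1.14e-08), with MF2 lowest. Penk was higher by 4.64 (FDR 2.18e-07). Crh had 34 UMIs (13, 1, 17 and 3 by library) against 0. Pooled over the libraries this was at least 67.3-fold higher by CPM, with the floor set at 3 counts over the group, and most of the UMIs came from MF1 and HF1. Calb2 was called at 2.29, and at 1.99 (FDR 0.0818) without MF1, and Igf1 at 1.06, with 0.95 without MF1. Outside the list, the Wnt agonist Rspo2 was at 176, 393, 130 and 90.2 CPM against 1.84, 0, 8.49 and 12.3 CPM (4.79, FDR 5.68e-07), and the ligand Wnt5b at 201, 252, 191 and 214 CPM against 20.3, 3.77, 23.8 and 5.48 CPM (3.99, FDR 8.28e-08). Both Wnt pathway genes were separate between the groups in every library. The ferroxidase Cp (4.25), the chloride channel Cftr (4.21), the gastrin releasing peptide receptor Grpr (3.91) and Qrfpr (3.85) completed the 8 largest among genes at 20 CPM or more in each library of the higher group, a limit that holds for the Cnr1 and Reln groups too.

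Of 10 neurogliaform genes tested in the Vip nuclei, 0 were higher and 7 lower (median -2.99), and Kit was not called (-0.24, FDR 0.855). Ndnf was at 8.39, 0, 0 and 0 CPM in them and 149, 183, 197 and 156 CPM in the nuclei without Vip (log2 difference -5.90, FDR 1.93e-07). Reln (-4.88), Lamp5 (-4.62) and Sv2c (-5.14) were lower too, as were Npy (-2.85) and Pde11a (-3.14). Hapln1 was called, and without MF1 it was at -1.68 (FDR 0.0603). Nxph1, lower in the Adarb2 interneurons as a class, was lower still in the Vip nuclei (-5.42, FDR 1.06e-09). Htr2a had 0 UMIs against 125, at least 7.01-fold lower, and Arhgap6 0 against 320, at least 18.0-fold lower. The GABA receptor subunit Gabrg1 (at least 6.00-fold), Trmt9b (at least 4.83-fold) and Gpc4 (at least 4.43-fold) were also at 0 in the Vip nuclei. Caudal genes gave 2 of 9 higher, Prox1 (1.19) and Egfr (1.26), and 0 lower, with Egfr at -0.36 when nuclei of glial lists were left out. Oligodendrocyte precursor markers summed to 369, 189, 198 and 237 CPM in the Vip nuclei and 435, 859, 640 and 525 CPM in those without, with 1 of 2 tested called lower, as was 1 of 4 astrocyte genes, and their part in these values was not tested.

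Against 58 nuclei without Cnr1, the 166 Cnr1 nuclei had 137 of 6085 genes called higher (2.25%) and 124 lower (2.04%), with a median of -0.01. Their median depth was 11030.5 UMIs against 8382.5. Of 9 caudal genes 5 were higher and 1 lower (median 1.67). Htr3a was at 45.2, 37.8, 48.2 and 23.2 CPM in the Cnr1 nuclei and 6.62, 0, 0 and 0 CPM in those without (log2 difference 4.32, FDR 0.00287). Cxcl14 was at 134, 104, 163 and 145 CPM against 6.62, 8.41, 18.4 and 12.3 CPM (3.6, FDR 5.98e-06). Npas1 (2.94) and Npas3 (2.28) were higher as well. Nr2f2, the fifth, was at 1.4 (FDR 0.230) without MF1, 1.95 (FDR 0.0645) without HF1 and 1.29 (FDR 0.228) without HF2. Prox1 went the other way (-1.01), and was at -0.80 (FDR 0.124) without MF2 and -0.91 (FDR 0.0802) without HF1. Medial genes called lower in the Cnr1 nuclei were Sox6, Sst (-1.87, FDR 0.000419), Tox (-1.99, FDR 0.000132) and Nxph1 (-1.13, FDR 0.00319). Sst turned sign with Scrublet scores over 0.05 left out, and Nxph1 was at -0.84 without HF1. Satb1 (0.63), Maf (-0.11), Cux2 (-0.28) and Kcnmb2 (0.51) were not called.

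Syt6 had 173 UMIs in the Cnr1 nuclei and 0 in those without, at least 16.9-fold higher. Cadps2 was at 692, 791, 1000 and 928 CPM against 19.9, 16.8, 97.9 and 135 CPM (log2 difference 3.77, FDR 1.33e-06). Htr2c was at 372, 220, 361 and 445 CPM against 19.9, 0, 67.3 and 67.7 CPM (3.22, FDR 8.58e-06). Several of the genes that most separated the whole class from other inhibitory nuclei thus had most of their level in its Cnr1 nuclei. Megf10 (4.64), Neb (3.67) and Gm29683 (3.32) were also among the 8 largest, and Rgs12 (2.56), Col19a1 (2.04) and Chrm3 (1.78) were higher. Vip (2.44, FDR 0.00920) and Penk (3.19, FDR 0.00311) were higher with Cnr1. In the nuclei without Cnr1, Sox6 was at 72.9, 395, 484 and 234 CPM against 11.8, 104, 55.6 and 28.6 CPM with it (-2.59, FDR 4.34e-06). The zinc finger factor Glis3 was at 219, 219, 190 and 203 CPM against 23.6, 26, 59.3 and 51.9 CPM (-2.29, FDR 2.26e-05). Glis3 is also on the list of excitatory markers, of which 1 of 7 was called higher with Cnr1 (Cpne4) and 2 lower (Glis3 and Neurod2), at a median of -1.08. The other genes lower with Cnr1 were Pdgfra (-3.85), C1ql3 (-2.63), Gm4876 (-2.55), Tanc1 (-2.27), Chst11 (-2.22) and Cecr2 (-2.19), and Cecr2 was at -1.62 (FDR 0.283) without MF1 and -1.94 (FDR 0.0691) without MF2. Markers of oligodendrocyte precursors moved with this division, at 365 to 633 summed CPM in the Cnr1 nuclei and 603 to 1471 CPM in those without, and 5 of 7 were called lower. Of these Olig1 lost its call without MF1 (FDR 0.0507), MF2 (FDR 0.248) or HF1 (FDR 0.0970), and C1ql1 without MF2 (FDR 0.171), HF1 (FDR 0.0524) or HF2 (FDR 0.0516). Astrocyte markers summed to 271 to 806 CPM against 731 to 1696 CPM. Haemoglobin and other genes of free RNA summed to 7363, 1403, 921 and 828 CPM in the Cnr1 nuclei and 1914, 1564, 588 and 394 CPM in those without, with MF1 far above the rest, and 3 of 7 were called higher, the haemoglobin genes Hba-a2, Hbb-bs and Hbb-bt (list median 0.91). The part of these markers in the Cnr1 values was not tested.

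Against 141 nuclei without Reln, the 88 Reln nuclei had 75 of 6087 genes called higher (1.23%) and 97 lower (1.59%), with a median of -0.02 and a median depth of 11529 UMIs against 9724. Of 9 other neurogliaform genes tested 7 were higher and 0 lower (median 1.5), the list that was lower in the Vip nuclei. Ndnf was at 303, 327, 381 and 388 CPM in the Reln nuclei and 19.7, 9.84, 7.32 and 0 CPM in those without (log2 difference 5.27, FDR 2.92e-07). Kit was at 162, 195, 140 and 266 CPM against 49.2, 13.1, 41.5 and 39.6 CPM (2.37, FDR 5.11e-05). The matrix protein Hapln1 (1.5), the phosphodiesterase Pde11a (1.58), Lamp5 (1.53) and Sv2c (1.5) were higher as well. Neuropeptide Y, Npy, was the seventh at 1.10 (FDR 0.0232), with 0.89 (FDR 0.152) without MF2 and 0.80 (FDR 0.150) without HF2. From the medial list, Nxph1 was higher in the Reln nuclei, at 1770, 2198, 1512 and 2304 CPM against 580, 725, 854 and 1199 CPM (1.24, FDR 0.000277). Kcnmb2 was called at 1.01 (FDR 0.00389), and at 0.88 without HF1. Sox6 (-0.59), Satb1 (-0.06), Maf (0.25) and Sst (0.55) were not called. Vip was at 35.1, 0, 3.40 and 47.2 CPM against 647, 433, 571 and 190 CPM (-4.31, FDR 5.11e-05). Chrm2, uneven between libraries, was at 0, 0, 17.0 and 30.4 CPM against 7.38, 380, 154 and 663 CPM (-4.59, FDR 4.89e-06), so its level was lower in the Reln nuclei in each library. The relaxin receptor Rxfp1 (3.15), Gm10475 (5.84), Coro6 (2.86), Jam2 (2.52), Myo3b (2.36) and Crispld1 (2.23) completed the 8 largest higher. Adamts18 (-3.86), Mob3b (-3.11), Sema5b (-2.90), Gabrg1 (-2.74) and Enpp2 (-2.49) were lower. Rspo2 was at -3.09, and at -2.41 (FDR 0.0739) without MF2, and Megf11 at -2.54, with -2.11 (FDR 0.0761) without MF2 and -1.92 (FDR 0.0975) without HF1. Oligodendrocyte markers summed to 206 to 1765 CPM in the Reln nuclei and 1082 to 1987 CPM in those without, with 5 of 8 called lower. Genes of free RNA summed to 931, 1356, 517 and 405 CPM against 2324, 1475, 1229 and 882 CPM, lower in each library, and the part of both lists in the Reln values was not tested.

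**Figure D4:**
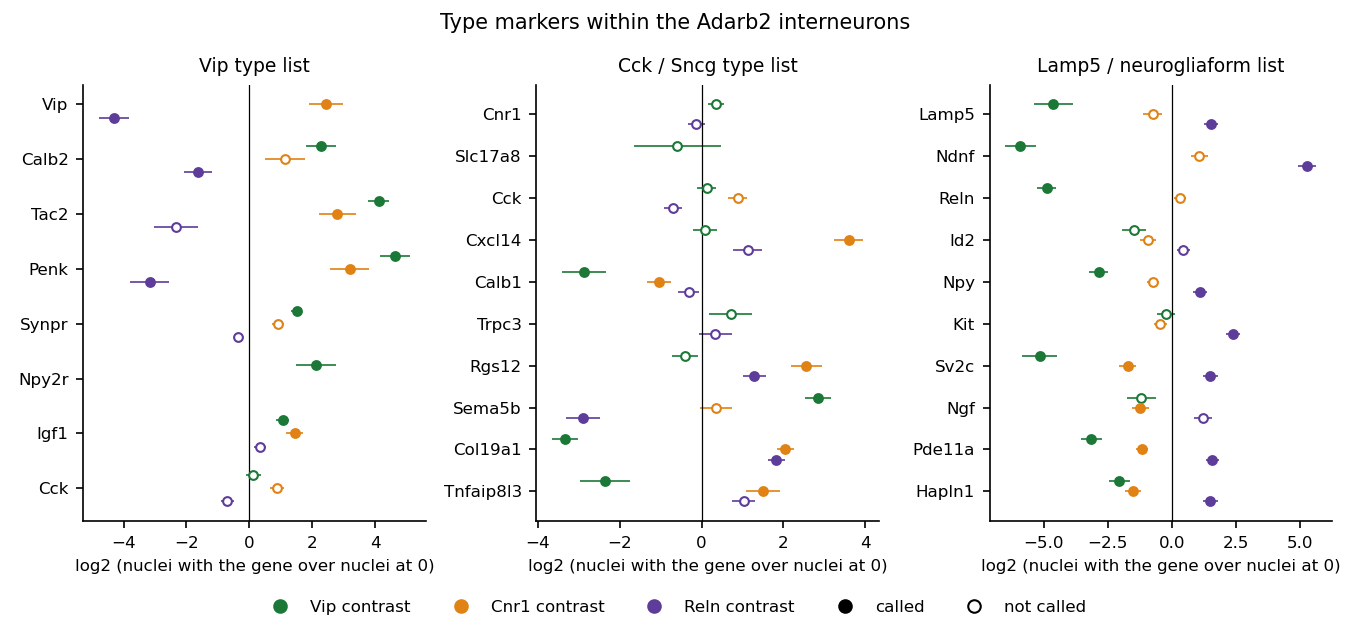
Log2 difference, with its SE as a bar, of Vip type, Cck and Sncg type, and Lamp5 and neurogliaform genes between Adarb2 interneurons with Vip (green), Cnr1 (orange) or Reln (purple) and those at 0 of that gene, filled points being called. Green and purple lie on opposite sides of 0 for Lamp5, Ndnf and Sv2c, while Cxcl14 is furthest right in orange, and genes at 0 in a group are not drawn.

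The share of Adarb2 interneurons did not differ between diets beyond the spread of the libraries. They made up 39.1% (95% Wilson interval 32.1 to 46.5), 40.0% (31.8 to 48.8), 39.8% (32.6 to 47.4) and 46.2% (38.5 to 54.0) of inhibitory nuclei, where the intervals cover counting error only. The mean was 39.5% ± 0.650 (SD, n = 2) in MF and 43.0% ± 4.52 (n = 2) in HF, a difference of 3.42 percentage points (exact permutation test, two-sided, p = 0.667). With 2 libraries against 2 this test cannot go below 0.333. The difference was 6.61 points without HF1 and 0.219 points without HF2. Of all kept nuclei they were 2.35%, 2.22%, 1.90% and 2.49%, a difference of -0.0916 points (exact p = 1) that was 0.201 points without HF1. Within them the Vip nuclei were 22.1%, 16%, 22.7% and 13.9%, the Cnr1 nuclei 64.7%, 68.0%, 65.2% and 62.5% and the Reln nuclei 27.9%, 38.0%, 36.4% and 36.1%. These 3 differences, -0.721, -2.53 and 3.27 points, had exact permutation p of 1, 0.667 and 1, each 1 after adjustment. Without 1 library they ranged from -5.14 to 3.70 points for Vip, -4.17 to -0.880 for Cnr1 and -1.76 to 8.30 for Reln, so the sign of the Vip and Reln differences was not fixed.

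No gene differed by diet in the Adarb2 interneurons at an FDR under 0.05 and at least 1.2-fold, with 0 of 8778 genes called (edgeR quasi-likelihood test) and 282 at an unadjusted p under 0.05. DESeq2 called 0, with 64 at an unadjusted p under 0.05. In simulated counts with these library sizes and spread, the edgeR diet fit called 3 of 67 genes changed 1.5-fold (4.48%). It called 50 of 67 changed 2.5-fold (74.6%) and 65 of 66 changed 4-fold (98.5%). Of 8239 unchanged genes it called 9. The changed genes were drawn from those above the median level, so the absence of calls does not exclude small differences. The libraries of the 2 diets did not overlap for 28.8% of genes, where 2 libraries against 2 give a share near 0.333 with no difference at all. Leaving out 1 library sets a single library against 2, with the spread taken from the other diet's pair alone and the single library assumed to vary like it, and gave 45 genes without HF1, 19 without HF2, 0 without MF1 and 0 without MF2. Vip (log2 HF over MF -0.46, with -1.06 to 1.76 over the alternatives) and Cnr1 (-0.40) each had an FDR of 1. The rule's own genes, given as a description, differed by -0.10 (Adarb2), -0.07 (Gad1) and -0.09 (Gad2). Every list gave 0 called genes, with medians of -0.14 for caudal, -0.07 for medial and -0.12 for folate and 1-carbon genes (15 tested), -0.05 for ribosomal protein genes (84) and 0.03 for oxidative phosphorylation genes (83), against -0.00 over all genes. Markers of other cells lay further from 0 without a call, with medians of 1.02 for astrocyte (6 of 6 above 0), 0.85 for microglial (6 of 6), -0.61 for oligodendrocyte precursor (0 of 5) and -0.98 for oligodendrocyte genes (1 of 8), 0.32 for excitatory genes (5 of 7) and -3.49 for haemoglobin and other genes of free RNA (1 of 7). The part of these markers in the diet values of single genes was not tested.

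The smallest p belonged to Rorb, a retinoid-related orphan nuclear receptor, at 6.89, 6.73, 49.5 and 47.6 CPM (log2 difference 2.83, SE 0.40, FDR 0.0803, and 0.781 by DESeq2). Its 5, 4, 39 and 41 UMIs came from 5, 4, 11 and 11 nuclei, and it did not pass the test. Rorb and the genes from Aldh1a1 to Hba-a1 below were picked among genes whose diets did not overlap. That their libraries lie apart by diet is therefore not a result. Over 15 alternatives it was called in 6, at log2 differences of 2.04 to 3.02 and an FDR of 1.78e-06 to 1. Aldh1a1, which makes retinoic acid, was at 1.38, 3.36, 24.1 and 15.1 CPM (3.03), from 1, 2, 5 and 5 nuclei, with 13 of the 19 UMIs of HF1 in 1 nucleus. Vwc2l was at 30.3, 20.2, 54.6 and 99.8 CPM (1.64, FDR 0.766), Hs3st4, a heparan sulfate enzyme, at 44.1, 33.6, 72.3 and 226 CPM (1.99) and Tafa1 at 168, 129, 247 and 475 CPM (1.32). A single nucleus held 59 of the 195 Hs3st4 UMIs of HF2. In the last 3 HF2 was the highest library and HF1 was also above both MF libraries. With lower values in HF, Prr5l was at 24.8, 40.4, 2.54 and 3.48 CPM (-3.31, FDR 0.393), and it was called in 4 of 13 alternatives. These values came from 2, 4, 1 and 1 nuclei, with 14 of 18 UMIs of MF1 and 12 of 24 of MF2 in 1 nucleus each. The myelin genes Mal, at 64.8, 72.3, 26.6 and 17.4 CPM (-1.61, FDR 0.754), and Mobp, at 123, 178, 72.3 and 34.8 CPM (-1.48), belong to the oligodendrocyte genes whose median by diet is given above. Tns3 was at -1.19, and Hba-a1, at 1130, 53.8, 41.9 and 39.5 CPM, rested on MF1 (-3.80). Cmss1 (-0.32), Filip1l (-0.31), Jph1 (0.10) and Tpt1 (0.09) each had an FDR of 1, and Ttr, a choroid plexus gene, had 0, 0, 59 and 2 UMIs.

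**Figure D5:**
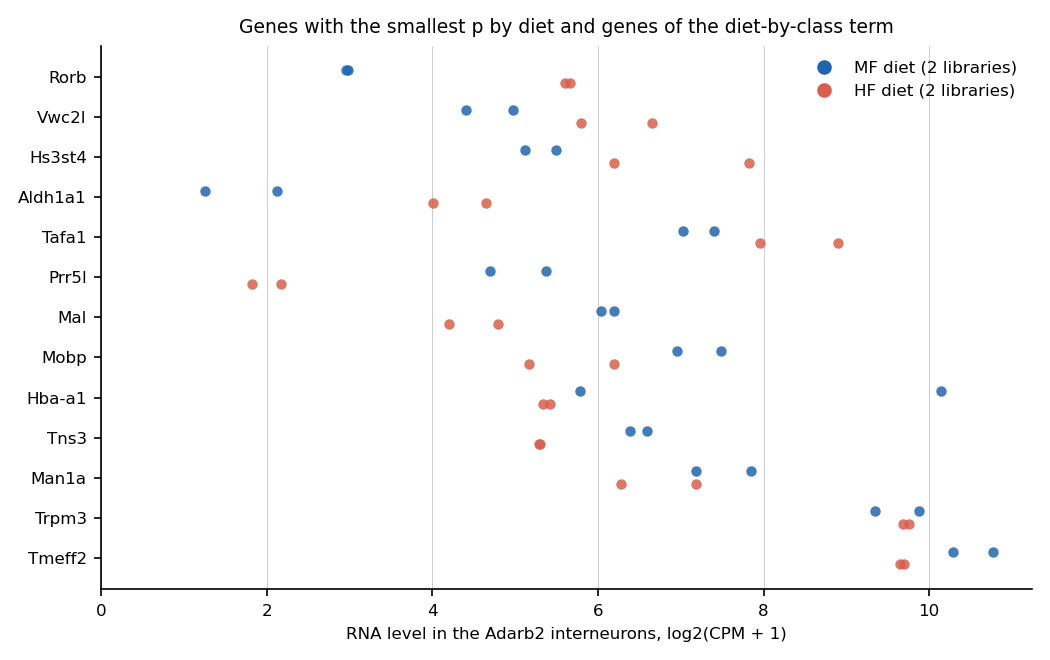
RNA level in the Adarb2 interneurons, as log2(CPM + 1), of the genes with the smallest p by diet and of Man1a, Trpm3 and Tmeff2, with 1 point per library in MF (blue) and HF (orange). The diets lie apart in Rorb and Prr5l, which were picked among genes whose diets did not overlap, and neither passed the test. Hba-a1 is high in a single MF library.

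Accessible regions gave 0 of 37412 called by diet in the Adarb2 interneurons (edgeR quasi-likelihood test, FDR under 0.05), with 1392 at an unadjusted p under 0.05, and DESeq2 called 0 with 563. The same test in the other inhibitory nuclei gave 0 of 10202 genes, with 286 at an unadjusted p under 0.05. A direct test of whether the diet difference was unequal between the classes called 5 of 10204 genes (0.0490%), namely Man1a, Vwc2l, Trpm3, Tmeff2 and Hs3st4, with 555 at an unadjusted p under 0.05, and DESeq2 called 0 with 60. Without 1 library the count was 20 to 68. Man1a, a mannosidase of glycoprotein processing, was at 145, 229, 145 and 76.6 CPM in the Adarb2 interneurons and 170, 183, 387 and 268 CPM in the others, so that MF1 and HF1 were level in the former and both HF libraries lay above both MF libraries in the latter.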

How the data were processed

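Nuclei from the hippocampi of P21 pups were profiled with the 10x multiome kit, and each of the 4 libraries gave a gene expression matrix and an ATAC peak matrix. The deposited matrices hold raw counts (UMIs per gene, ATAC counts per peak), which the authors made with Cell Ranger ARC (version 2.0.1, from the submitters' processing notes) on mm10, with peaks called per library. The authors also filtered nuclei on nucleosome signal and start-site enrichment, which need fragment files not used here. No column belonged to another series (0 columns).

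Counts were summed per library over the Adarb2 interneurons and over the other inhibitory nuclei, giving 8 sums for RNA and 8 for ATAC, and tested with edgeR 4.0.16 (quasi-likelihood, TMM, genes with low counts filtered, Benjamini-Hochberg FDR). The class fits had the library as a block, and the diet fits used the 4 sums of 1 class. DESeq2 1.42.0 was an alternative. Peaks of the 4 libraries were merged, and those with a peak in all 4 (154785 of 253748) went forward. A peak matrix holds no counts outside its own peaks, so a merged region's counts depend on how far each library's peak extends. Genes were placed with GENCODE M21, which matched 31287 of 32285 symbols. Python 3.11.15, numpy 2.4.6, pandas 2.3.3, scipy 1.17.1, scanpy 1.11.5 (Scrublet) and R 4.3.3 were used, and the fits were tested on simulated data. Totals of 594673 to 861588 UMIs per library limit the precision for low genes.

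The nuclei, gene lists and groups were chosen with earlier results of these data known. Genes named were the 12 largest folds in each direction among called genes with 20 CPM or more in the higher class and the same direction in all 4 libraries, list members by count with examples, the 8 largest per group within the Adarb2 interneurons, for diet the 5 smallest p in each direction among genes whose diets did not overlap plus Cmss1, Filip1l, Jph1, Tpt1, Ttr and haemoglobins, and for regions the 5 smallest FDR in each direction and called regions at lineage genes, of which some are not shown. Genes named outside this rule were chosen after their values were seen. Alternatives changed the tool, the filter, the fold minimum, the marker limits, the comparison nuclei, doublet handling and the libraries. Leaving out nuclei with 3 or more UMIs over Mog, Mag, Aqp4, Gja1, Pdgfra, Csf1r, Cx3cr1 and Ptprc, and comparing with Lhx6 nuclei at 1 or more UMIs, were chosen after seeing the data. Wherever the comparison was with Lhx6 nuclei only, those nuclei also had at most 1 Adarb2 UMI. A few items of the gene lists are counted but not reported here by name.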

Additional observations from a re-analysis of the deposited data

Results flagged for a closer look

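The diet difference (log2 HF over MF) was unequal between the Adarb2 interneurons and the other inhibitory nuclei for 5 genes. This came from a direct test of that inequality (edgeR quasi-likelihood test, Benjamini-Hochberg FDR), and DESeq2 called none of them. The same test called 0 genes with Scrublet scores over 0.05 left out, and 0 with nuclei left out by either rule on glial markers. In neither class was a gene called by diet on its own. In simulated counts the edgeR test of inequality called 70 of 100 genes changed 2.5-fold and 97 of 100 changed 4-fold. Of 9569 unchanged genes it called 14. Man1a, a mannosidase of glycoprotein processing, differed by -1.66 (FDR 0.0323), from a diet difference of -0.75 in the Adarb2 interneurons and 0.93 in the others. It was called in 7 of 14 alternatives, with values of -2.08 to -0.72. Vwc2l, a secreted protein, differed by 2.15 (FDR 0.0399), from 1.64 and -0.55, with 131, 42.4, 44.2 and 70.9 CPM in the others. It was called in 6 of 13 alternatives and was at 1.48 (FDR 0.454) without MF1. The ion channel Trpm3 differed by -1.21 (FDR 0.0399), from 0.11 and 1.35, at 648, 938, 868 and 821 CPM in the Adarb2 interneurons and 224, 235, 589 and 548 CPM in the others. Its inequality thus came from the other inhibitory nuclei, and it was called in 7 of 14 alternatives. Tmeff2, a membrane protein, differed by -1.23 (FDR 0.0399), from -0.86 and 0.38, at 1246, 1742, 826 and 799 CPM against 843, 1194, 1577 and 1035 CPM. It was called in 6 of 14 alternatives, with values of -1.52 to 0.20, the sign turning with nuclei of glial lists left out, and was at -0.92 (FDR 0.0551) without HF1. Hs3st4 differed by 1.77 (FDR 0.0399), from 1.99 and 0.12, with 78.6, 73.1, 51.1 and 110 CPM in the others. It was called in 6 of 13 alternatives and was at 1.42 (FDR 0.0613) without HF2, the library with the highest value in the Adarb2 interneurons.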

How the results depend on the processing

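Of the settings tried for the main counts and shares, 112 stayed within the limits set for no change and 42 did not. The class comparison called 456 genes, 309 with DESeq2, 1099 with no fold minimum and 213 against only the nuclei with 2 or more Lhx6 UMIs. It called 85 with nuclei of 5 or more glial list UMIs left out, where few nuclei and 1865 genes were left to test. DESeq2 kept 58 of its 65 named calls and lost 7. Neuropeptides called higher went from 4 to 3, oligodendrocyte precursor genes from 2 to 1 and free RNA genes from 3 to 0. Neurogliaform genes called higher went from 3 to 4. Diet in the Adarb2 interneurons gave 0 genes, 23 with no low-count filter, 1 each with Adarb2 at 2 or more and at 5 or more UMIs, and 0 to 45 without 1 library. With a replicate block it gave 8 (3 higher, 5 lower) for genes and 0 for regions. Deviations of same-numbered libraries had a correlation of 0.0885 over genes and -0.00894 over regions, values that do not describe single lists. Ribosomal protein genes summed to 8907, 6488, 9313 and 5515 CPM, higher in MF1 and HF1. Oxidative phosphorylation genes did so too (6733, 4715, 7341 and 4079 CPM), as did neuropeptide genes (1265, 584, 1313 and 539 CPM). Vip type genes were likewise higher in MF1 and HF1 (1757, 1297, 1787 and 1256 CPM), while caudal genes were not (3355, 3884, 3398 and 3238 CPM). Whether same-numbered libraries shared a batch was not tested. The 5 genes with unequal diet differences became 0 with DESeq2, with Adarb2 at 5 or more, Lhx6 at most 1, no ATAC filter, Scrublet scores over 0.05 left out, or either glial rule, 49 with no low-count filter, and 20 to 68 without 1 library. The Vip, Cnr1 and Reln comparisons called 352, 261 and 172 genes, and 34, 0 and 8 with nuclei of glial lists left out, while Reln gave 94 with DESeq2 and 261 with no filter. Regions between classes numbered 971, 431 with DESeq2, 262 against nuclei with Lhx6, 0 against those with 2 or more Lhx6 UMIs, and 303 to 466 without 1 library. Regions by diet numbered 6 with a peak in 2 or more libraries, and 0 to 38 without 1 library. Accessible genes numbered 214, 53 with DESeq2, and 86 to 212 without 1 library. The Cnr1 share differed by 0.353 points at 1 or more UMIs and by -7.67 after thinning. Without 1 library the diet difference in shares also turned sign for the Vip nuclei (-5.14 to 3.70 points), the Reln nuclei (-1.76 to 8.30) and the Adarb2 interneurons among kept nuclei (-0.384 to 0.201), none of which was called. Among values called as reported or under the alternative, signs turned for Chrm2 (-3.69, class, glial lists), Slc1a3 (1.01, class, 5000 to 15000 UMIs), Hba-a2 (-0.040 to 1.93, class, without 1 library, -0.040 without MF1), Sst (-2.03 to 1.38, diet, without 1 library), Tmeff2 (0.20, unequal diet difference, glial lists), Egfr (-0.36, Vip, glial lists), Sst (0.13, Cnr1, Scrublet) and Kcnmb2 (-0.30, Reln, glial lists). Diet values that were not called crossed 0 as well, such as Vip (-1.06 to 1.76), Crh (-1.41 to 2.97), Tac2 (-0.83 to 1.70) and Tac1 (-1.87 to 2.35). The cause of these moves was not tested, beyond the fewer nuclei that a rule leaves. With 50 to 72 Adarb2 interneurons per library and 2 libraries per diet, small diet differences could be missed, in low genes and in others.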
